A study of Mus musculus with 10 samples.

Results

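The nerve supply of the embryonic mouse gallbladder and cystic duct was read through 8 genes of neural crest cells, glia and neurons: Ret, Sox10, Elavl4, Tubb3, Gap43, Stmn2, Prph and Th. All array probe sets that the platform table assigns to 1 of these genes alone were taken, which gave 17 probe sets of 34945 with a single gene (8 genes of 18193). A probe set is a group of short oligonucleotides that together read a transcript. Ret and Stmn2 had 2 probe sets each, Sox10 and Elavl4 had 3 each, Prph had 4, and Tubb3, Gap43 and Th had 1 each. Of the 17, 14 lay above the filter on dim signal and were tested. The only probe set of Tubb3 and 2 of the 3 of Elavl4 lay under it and are described without a test.

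The study profiled 10 samples of mouse embryos at 15 dpc (days post coitum) in 5 groups of 2 biological replicates. From ICR, an outbred stock, gallbladder was taken from wild type and Sox17+/- embryos. Cystic duct, through which bile enters and leaves the gallbladder, was taken from ICR wild type embryos. Gallbladder of both genotypes was also taken from C57BL/6 (B6), an inbred strain. Sox17 encodes an endodermal transcription factor, and Sox17+/- embryos carry 1 altered copy. The labels describe neither the altered allele nor whether tissue was pooled, and they name no animal or litter, so the p-values measure the spread between these samples. Each whole organ was measured in bulk, so fewer nerve cells, less RNA per nerve cell and a change in signal from other cells cannot be told apart.

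The neurons and glia of the gut and bile ducts descend from neural crest cells, which migrate into the organ wall and gather into small ganglia, while other fibres grow in from ganglia outside the organ. Migrating enteric crest cells carry the receptor tyrosine kinase RET, which binds GDNF family ligands from the surrounding mesenchyme, and the transcription factor SOX10, which glia keep and neurons lose. As neurons differentiate they switch on the RNA-binding protein ELAVL4 (HuD), the tubulin TUBB3, the growth cone proteins GAP43 and STMN2, the intermediate filament peripherin (PRPH) and, in catecholamine neurons, tyrosine hydroxylase (TH).

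The promoters of 4 of the 8 genes (Elavl4, Th, Tubb3 and Prph) were matched in the RefSeq promoter table for GRCm38.p6. The 100 bases before the annotated start of Th, Tubb3 and Prph are shown because each holds at least 1 of the motifs searched; the 4 annotated starts of Elavl4 held none of them in that window and are not printed. They run 5′ to 3′ on the gene's own strand, and capitals mark a TATA box (TATAAA), a cAMP response element (TGACGTCA) or a GC box (GGGCGG, or CCGCCC on the opposite strand).
Th promoter, chr7:142899996-142900095, minus strand: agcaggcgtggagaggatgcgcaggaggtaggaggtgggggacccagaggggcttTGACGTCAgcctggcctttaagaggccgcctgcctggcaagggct
Tubb3 promoter, chr8:123411453-123411552, plus strand: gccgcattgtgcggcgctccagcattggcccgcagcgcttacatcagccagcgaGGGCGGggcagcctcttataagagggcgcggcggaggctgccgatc
Prph promoter, chr15:99055074-99055173, plus strand: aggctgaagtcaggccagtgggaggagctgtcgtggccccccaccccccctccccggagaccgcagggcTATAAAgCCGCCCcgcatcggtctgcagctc
The first base of the cAMP response element of Th lay 45 bases before the start. The GC box of Tubb3 began 46 bases before the start, and the TATA box of Prph 31 bases before it, with a GC box on the opposite strand from 24 bases before it. Among 32851 promoters of the table, searched on both strands over 250 bases before the start, 12.4% held the TATA box, 1.55% the cAMP response element and 32.7% the GC box. Such matches describe the letters only and do not show that a factor binds.

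Values are log2 signals after quantile normalization, a step that gives all samples the same distribution of signals. A difference of 1 is a change of 2-fold. To gauge background, 17 genes of unrelated adult tissues (rod photoreceptors, sperm, mammary gland, thyroid and others) were read on the same arrays. Their means over the 10 samples ran from 3.29 to 6.37, with a median of 3.90, and the dimmest 30% of probe sets were left untested (under 4.47). Only Gap43 and Stmn2, 3 probe sets in all, had means above the highest of these unrelated genes. The other 6 genes lay within their range. Of all 17 member probe sets, those of Gap43 and Stmn2 included, 11 exceeded the background list's upper quartile of 5.11. No probe set of Elavl4, Tubb3 or Th did. All 9 biliary epithelium genes and all 8 smooth muscle genes listed as tissue markers passed the filter.

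The samples were not equally alike. Gallbladder replicates correlated at 0.967 to 0.995 over all probe sets tested, with median differences of 0.11 to 0.21, whereas the cystic duct pair correlated at 0.90 with a median difference of 0.57. Cystic duct replicate 2 also had the narrowest spread of deposited values (interquartile range 2.75, against 3.46 to 3.84 elsewhere). The members' cystic duct values are therefore given for each replicate as well.

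Gap43 and Stmn2, genes of growing axons, were well expressed in all 8 gallbladder samples. GAP43 is a growth cone protein phosphorylated during axon extension. Its log2 signal was 8.78 and 8.24 in ICR wild type gallbladder, 8.81 and 8.30 in ICR Sox17+/-, 8.09 and 8.50 in B6 wild type, and 8.35 and 7.87 in B6 Sox17+/-. In ICR cystic duct it was 6.89 and 7.46. The cystic duct samples lay below all 8 gallbladder samples, which overlapped one another across genotype and strain. By group mean the order was ICR Sox17+/- (8.56 ± 0.36, SD, n = 2), ICR wild type (8.51 ± 0.38), B6 wild type (8.29 ± 0.30), B6 Sox17+/- (8.11 ± 0.33) and cystic duct (7.17 ± 0.41). Only the last step in that order exceeded the SDs of the groups on either side.

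STMN2 (SCG10) is a microtubule-destabilizing phosphoprotein of growth cones. Its probe set 1423280_at gave 8.06 and 7.58 in ICR wild type gallbladder, 8.31 and 7.79 in ICR Sox17+/-, 8.25 and 8.57 in B6 wild type, 8.65 and 8.19 in B6 Sox17+/-, and 6.54 and 7.33 in cystic duct. Here too both cystic duct samples were the lowest of the 10, with a group mean of 6.93 ± 0.56 (SD, n = 2) against 7.82 ± 0.34 in ICR wild type gallbladder. The second probe set, 1423281_at, gave 8.60 and 7.63, 8.81 and 8.04, 8.42 and 8.70, and 8.75 and 8.22 in the same 4 gallbladder groups. In cystic duct it gave 6.08 and 8.97, the lowest and the highest value of all 10 samples. The pair of probe sets for Stmn2 therefore disagreed about cystic duct replicate 2.

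**Figure D1:**
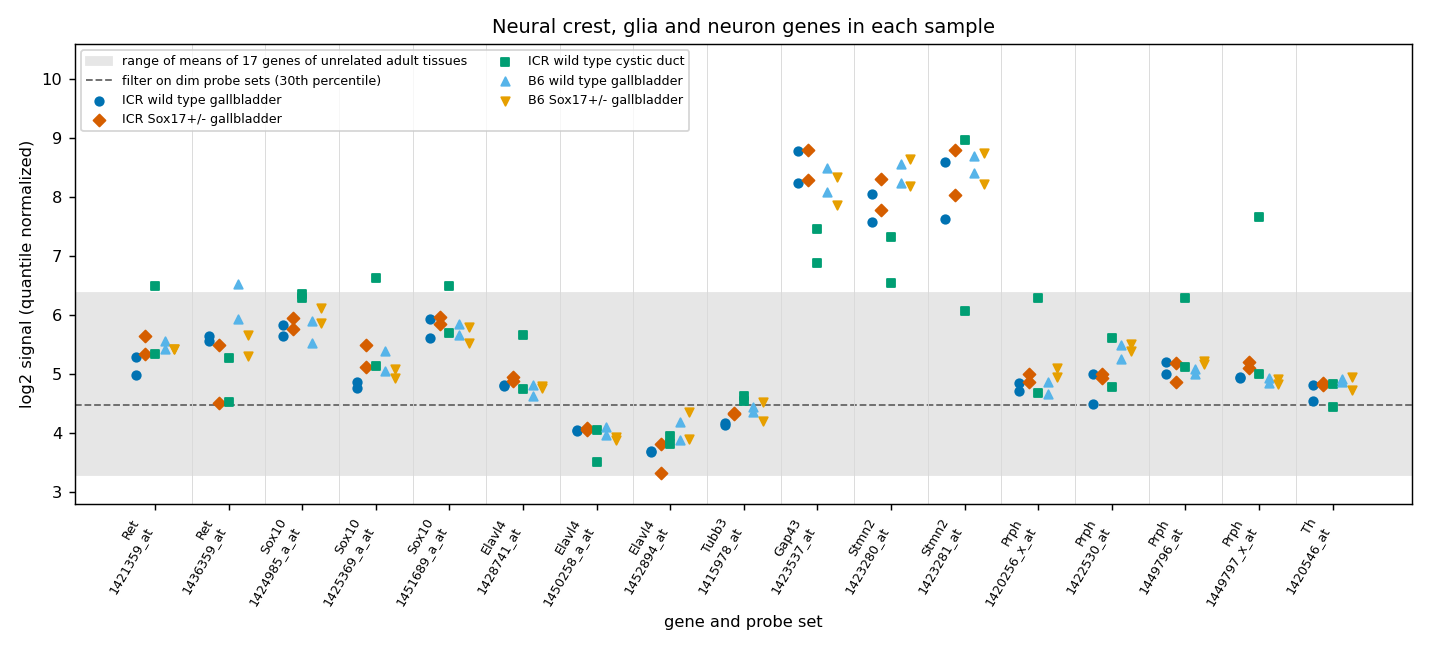
Log2 signal (y axis, quantile normalized) of each of the 17 member probe sets (x axis) in the 10 samples, with 1 marker shape and colour per group. The grey band spans the means of the 17 genes of unrelated adult tissues (3.29 to 6.37) and the dashed line is the filter at 4.47; the gallbladder samples of Gap43 and Stmn2 stand above the band, and both cystic duct samples are the lowest for Gap43.

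The crest genes Ret and Sox10 were dim. Ret probe set 1436359_at gave 5.56 and 5.64 in ICR wild type gallbladder, 4.52 and 5.49 in ICR Sox17+/-, 6.53 and 5.93 in B6 wild type, 5.66 and 5.31 in B6 Sox17+/-, and 4.53 and 5.27 in cystic duct. Within each strain both Sox17+/- samples were below both wild type samples. The other Ret probe set, 1421359_at, ran from 4.99 to 5.65 over the 8 gallbladder samples, and there both ICR Sox17+/- samples (5.65 and 5.35) lay above both ICR wild type samples (5.29 and 4.99). Its B6 genotypes overlapped, and cystic duct gave 5.35 and 6.50.

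Sox10, which marks crest progenitors and then glia, was read by 3 probe sets. Probe set 1424985_a_at ran from 5.53 to 6.12 in the 8 gallbladder samples and gave 6.30 and 6.36 in cystic duct, above all of them. The other Sox10 probe sets, 1425369_a_at and 1451689_a_at, ran from 4.77 to 5.50 and from 5.53 to 5.97 in gallbladder. In cystic duct they gave 5.14 and 6.63, and 5.70 and 6.50, so that replicate 2 was the highest sample and replicate 1 lay among the gallbladders.

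The remaining neuronal genes were near background. Elavl4 probe set 1428741_at ran from 4.63 to 4.96 in gallbladder and gave 4.75 and 5.66 in cystic duct; the untested Elavl4 probe sets ran from 3.51 to 4.10 and from 3.32 to 4.36 over all 10 samples. Tubb3, the neuronal beta tubulin, ran from 4.14 to 4.53 in gallbladder and gave 4.63 and 4.55 in cystic duct, just above all gallbladder samples but close to the filter. Th, the rate-limiting enzyme of catecholamine synthesis, ran from 4.55 to 4.95 in gallbladder and gave 4.45 and 4.84 in cystic duct. These signals cannot show whether the genes were silent or only dim, since a probe set's level also depends on how well its oligonucleotides bind.

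Prph, the intermediate filament of peripheral neurons, was read by 4 probe sets that did not move together. Probe set 1422530_at gave 5.0 and 4.50 in ICR wild type gallbladder, 5.01 and 4.93 in ICR Sox17+/-, 5.25 and 5.50 in B6 wild type, 5.51 and 5.40 in B6 Sox17+/-, and 5.61 and 4.79 in cystic duct. It was higher in all 4 B6 samples than in all 4 ICR gallbladders, a separation whose share over all probe sets was not counted. The other probe sets of Prph, for which the platform table gives no transcript accession and of which 2 are of a type prone to cross-hybridize (names in _x_at), were flat in gallbladder. Probe set 1449797_x_at, for example, ran from 4.83 to 5.20 in the 8 gallbladders and gave 5.0 and 7.67 in cystic duct.

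Sox17 heterozygosity was not accompanied by a detectable change in any member at this number of samples. In limma, over both strains, 0 of 14 member probe sets passed an adjusted p of 0.05 (Benjamini-Hochberg over the 31526 probe sets tested), where 0.00634% of all probe sets passed. Sox17 itself, read by its brightest probe set, did not pass this test either (difference -1.40, SE 0.17, limma adjusted p = 0.0855). Gap43 differed by -0.07 between Sox17+/- and wild type gallbladder (SE 0.22, 95% interval -0.59 to 0.44). Stmn2 differed by 0.12 on 1423280_at (SE 0.24, interval -0.42 to 0.66) and by 0.12 on 1423281_at (SE 0.57, interval -1.20 to 1.43). These intervals are for the log2 difference, with a spread estimated over all groups, cystic duct included. In that fit the last leaves room for more than a 2-fold change in either direction. Fitted on the compared gallbladder groups alone, Stmn2 1423281_at had an SE of 0.27 and an interval of -0.51 to 0.74, within a 2-fold change. In the same fit the interval was -0.31 to 0.55 for Stmn2 1423280_at and -0.53 to 0.39 for Gap43.

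Ret 1436359_at was the 1 member probe set of 14 with an unadjusted limma p under 0.05, where 2.94% of all probe sets had one. It differed by -0.67 over both strains (SE 0.28, interval -1.30 to -0.03, unadjusted p = 0.0417, limma adjusted p = 1), with -0.59 in ICR and -0.74 in B6. The other Ret probe set differed by 0.15 (SE 0.25, interval -0.43 to 0.72). A separation of both Sox17+/- samples below both wild type samples in each strain was seen for 5.75% of all probe sets and for 1 of 14 members, this one. The opposite separation was seen for 3.75% of all and for 1 member, Prph 1420256_x_at. The median difference over the 14 members was 0.11, beside -0.01 over all probe sets.

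Within ICR alone, 0 of 14 members passed in limma (0.00317% of all did), and 0 had an unadjusted p under 0.05, where 4.32% of all probe sets had one. Gap43 differed by 0.04 and Stmn2 by 0.23 and 0.31. Within B6 alone, 0 of 14 passed as well (0.00317% of all), again with 0 at an unadjusted p under 0.05 (1.33% of all). There Gap43 differed by -0.19 and Stmn2 by 0.01 and -0.08. The difference between the genotype effects of the strains, tested as an interaction, passed for 0 of 14 members and for 0% of all probe sets, with 0 members at an unadjusted p under 0.05 (1.34% of all). Fitted on the compared groups alone, 0 members passed, but 1 of 14 had an unadjusted limma p under 0.05 in each comparison. It was Sox10 1425369_a_at within ICR (6.09% of all) and in the interaction (5.89%), and Ret 1436359_at within B6 (9.98%). Without ICR wild type gallbladder replicate 2, 401 probe sets passed the interaction and 634 the ICR genotype comparison, again with 0 members among them.

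The wild type gallbladders of the strains did not differ past the threshold in these genes. B6 against ICR gave 0 of 14 members past the threshold in limma, where 2.92% of all probe sets passed, and 0 members with an unadjusted p under 0.05 (15.3% of all). Fitted on the compared groups alone, 0 members passed, but 3 of 14 had an unadjusted limma p under 0.05 (26.9% of all). The member with the lowest p was Prph 1422530_at, at 0.63 higher in B6 (SE 0.30, interval -0.06 to 1.32, limma adjusted p = 0.383). Stmn2 1423280_at was at 0.59 (limma adjusted p = 0.494) and Ret 1436359_at at 0.63 (limma adjusted p = 0.552), while Gap43 was at -0.22 (SE 0.32, interval -0.95 to 0.51).

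**Figure D2:**
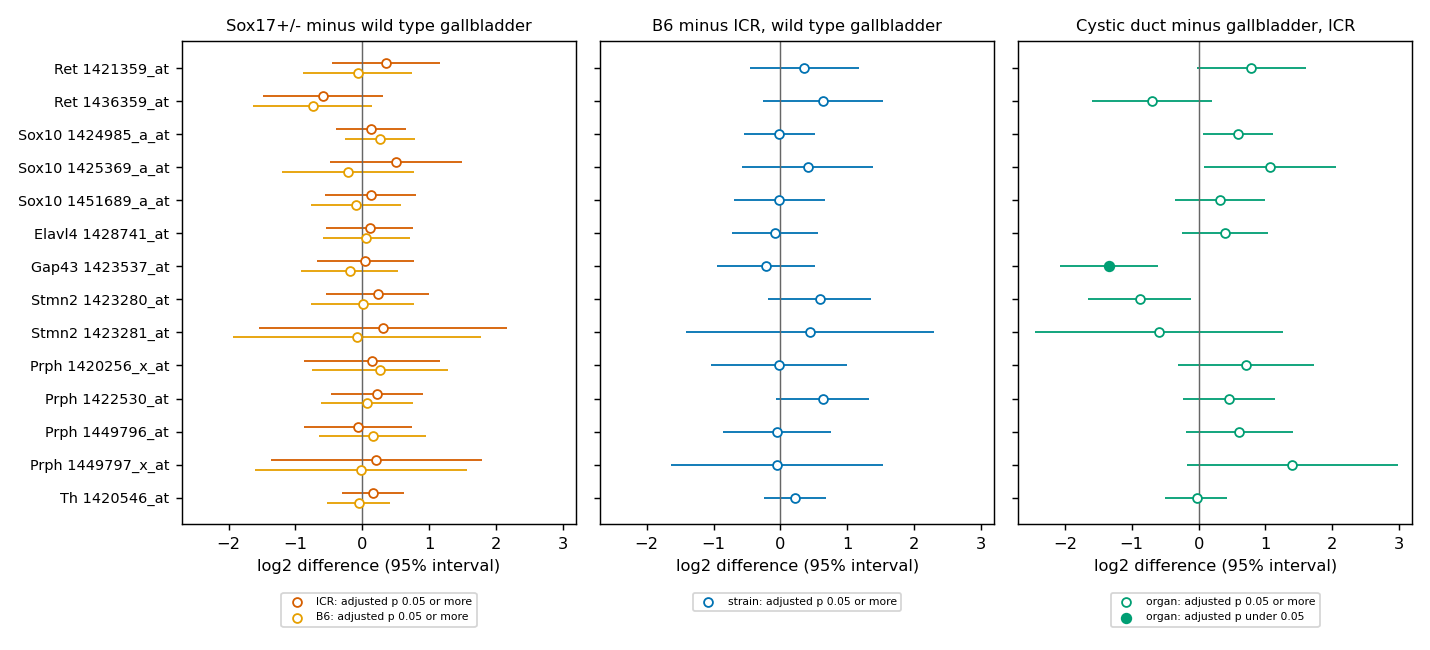
Log2 difference (x axis) of each of the 14 tested member probe sets (y axis) by genotype in each strain, by strain and by organ, with 95% intervals from limma. Gap43 in cystic duct against gallbladder, at -1.34, is the only filled point, which marks an adjusted p under 0.05.

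Gap43 signal was lower in both cystic duct samples than in all 8 gallbladder samples, but whether it passed depended on the fit. In ICR wild type embryos Gap43 was lower in cystic duct by 2.53-fold (log2 difference -1.34, SE 0.32, interval -2.07 to -0.61, limma adjusted p = 0.0397). It was the 1 of 14 members to pass, and 8.75% of all probe sets passed this comparison (5.54% lower and 3.22% higher), so the count of members was no larger than the background share. Each cystic duct replicate was below the gallbladder mean, by 1.63 and 1.05 on the log2 scale. As deposited, before quantile normalization, the cystic duct replicates gave 7.03 and 7.05 and the gallbladder replicates 9.02 and 8.28. Fitted on those 4 samples alone, limma gave Gap43 an adjusted p of 0.334 and called 0 of all probe sets; leaving out each of the 8 gallbladder samples in turn gave adjusted p-values of 0.0569 to 0.194. Leaving out cystic duct replicate 1 or 2 gave differences of -1.05 and -1.63. Each of those fits rests on 1 cystic duct sample, so a call there does not show that the result is stable.

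Stmn2 did not pass in cystic duct. Probe set 1423280_at stood at -0.88 (SE 0.33, interval -1.65 to -0.12, limma adjusted p = 0.139) and 1423281_at at -0.59 (SE 0.81, interval -2.45 to 1.27, limma adjusted p = 0.654). Both cystic duct samples lay below all 8 gallbladders for 2 of 14 members, Gap43 and Stmn2 1423280_at, and for 14.0% of all probe sets. When cystic duct was set against the mean of the 4 gallbladder groups, an alternative added after the data were seen that mixes strain and genotype, Stmn2 1423280_at was lower by 1.24 on the log2 scale (limma adjusted p = 0.0188) and Gap43 by 1.19 (limma adjusted p = 0.018). In that comparison 5355 probe sets passed.

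The crest genes and the remaining neuronal genes did not pass either. Sox10 gave 0.59 on 1424985_a_at (SE 0.23, interval 0.07 to 1.12, limma adjusted p = 0.146), 1.07 on 1425369_a_at (SE 0.43, limma adjusted p = 0.157) and 0.32 on 1451689_a_at (limma adjusted p = 0.498). The first was the only 1 of the 14 tested members above all 8 gallbladders in both cystic duct samples, beside 9.51% of all probe sets. Ret gave 0.79 on 1421359_at and -0.70 on 1436359_at, opposite in sign (limma adjusted p = 0.195 and 0.278). Elavl4 1428741_at gave 0.40 (limma adjusted p = 0.381), Th -0.03 (SE 0.20, interval -0.50 to 0.43, limma adjusted p = 0.927), and the 4 Prph probe sets 0.45 to 1.40 (limma adjusted p from 0.228 to 0.351). In all, 4 of 14 members had an unadjusted p under 0.05, against 27.2% of all probe sets, and the median over the members was 0.43, beside -0.05 over all. That median was -0.07 for replicate 1 and 0.78 for replicate 2, each against the ICR wild type gallbladder mean, so its sign rested on replicate 2.

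The cystic duct replicates differed widely from each other in these genes. Replicate 2 was the highest of the 10 samples for 9 of 14 members and for 27.2% of all probe sets. Replicate 1 was the highest for 1 of 14 members and for 16.4% of all. The pair differed by over 1 log2 unit for 6 of 14 members and for 25.9% of all probe sets. The widest gaps were in Stmn2 1423281_at, where replicate 2 exceeded replicate 1 by 2.90, and in Prph 1449797_x_at, where it did so by 2.68.

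**Figure D3:**
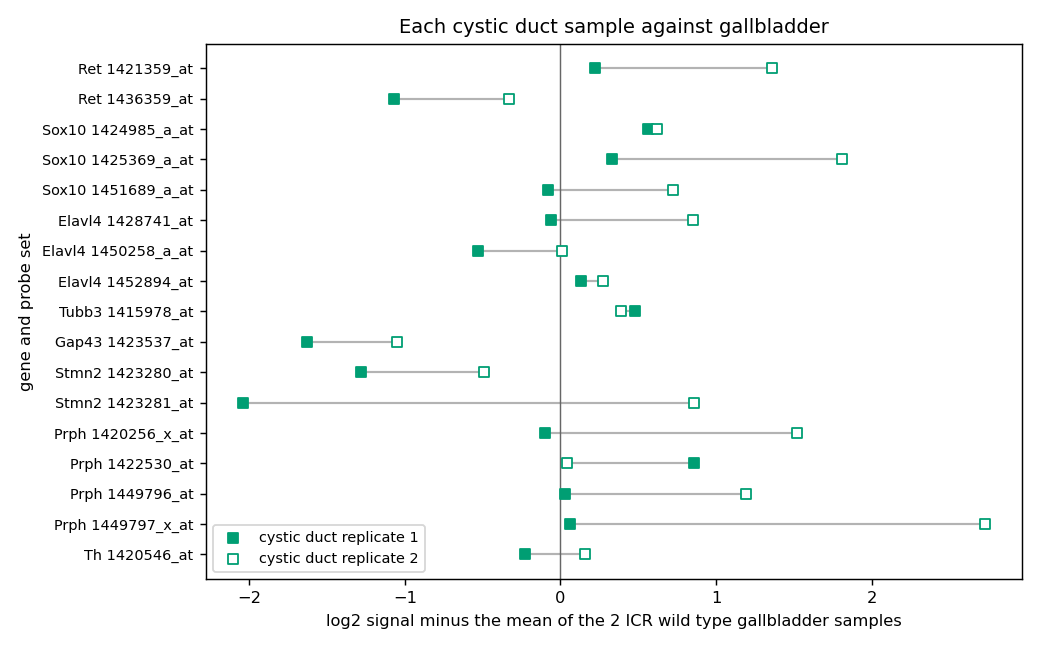
Log2 signal of cystic duct replicate 1 (filled squares) and replicate 2 (open squares) minus the mean of ICR wild type gallbladder (x axis) for each member probe set (y axis), joined by a line. Gap43 is low in both replicates (-1.63 and -1.05), whereas Stmn2 1423281_at is at -2.04 in replicate 1 and 0.86 in replicate 2.

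Which members passed therefore depended on the replicate. Without cystic duct replicate 1, 8 of 14 members passed in limma, where 48.4% of all probe sets did: Gap43 was lower, and 1 Ret, 2 Sox10, 1 Elavl4 and 3 Prph probe sets were higher. The largest of these was Prph 1449797_x_at at 2.73, followed by Sox10 1425369_a_at at 1.81. Without replicate 2, 4 of 14 passed, where 20.9% of all did: Gap43 (-1.63), Stmn2 (-1.28 and -2.04) and, higher, Prph 1422530_at (0.86). Gap43 differed by -1.05 without replicate 1 and by -1.63 without replicate 2, and Stmn2 1423280_at by -0.49 and -1.28. With 1 cystic duct sample left, that sample is assumed to vary like the other groups.

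Markers of other tissues moved with the same comparison. Hepatocyte genes rose in cystic duct for 8 of 9 genes, with summed signals of 113586 to 141050 against 24763 to 32537 in ICR wild type gallbladder. Erythroid genes rose for 3 of 5 tested, with summed signals over 6 genes of 8655 to 21317 against 1194 to 2487. Smooth muscle genes fell for 5 of 8, with summed signals of 5696 to 9628 against 23949 to 25493. Pancreatic endocrine genes, which neurons partly share, had summed signals of 299 to 553 against 301 to 332, and 6 of their 11 measured genes lay under the filter; Isl1, also a neuronal transcription factor, went from 4.31 and 4.55 to 5.38 and 5.04, all within the background range (limma adjusted p = 0.0466). Chromaffin genes, 4 in number, summed to 343 to 672 against 235 to 253, and Gata2, an erythroid factor as well, rose from 6.46 and 6.70 to 7.46 and 8.08 (limma adjusted p = 0.0351). On the deposited scale 0 endocrine and 0 chromaffin genes passed, and hepatocyte and smooth muscle genes again gave 8 higher and 5 lower. Of 8 skeletal muscle genes tested, 0 passed. The part of these shifts in the Gap43 difference was not tested.

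Cystic duct replicate 2 also exceeded all 8 gallbladders for 7 of the 17 genes of unrelated adult tissues and for 6 of the 8 member genes. Each gene was read by its brightest probe set. Replicate 1 did so for 1 of 17 and 2 of 8. In other lists replicate 2 did so for 8 of 11 pancreatic endocrine and 3 of 4 chromaffin genes. It did so for 9 of 9 hepatocyte and 0 of 8 smooth muscle genes. The share of all probe sets under this rule was not counted. The 3′ minus 5′ signal of the Gapdh control probe sets, a measure of RNA integrity and labelling, was 0.92 in cystic duct replicate 1 and 0.31 in replicate 2, against 0.60 and 0.93 in ICR wild type gallbladder and 0.00 to 0.30 in the B6 gallbladders. That of the Actb controls was 1.03 and 1.19 in cystic duct, against 0.56 and 1.40 in ICR wild type gallbladder. The part of RNA quality in the differences between the replicates was not tested.

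Around the members, 5 lists of nerve-related genes were read, 1 probe set per gene. Their counts stand beside the 3.22% higher and 5.54% lower among all probe sets. Those shares include dim and repeated probe sets of a gene. In a fit with 1 probe set per gene, as the lists use, 6.53% were higher and 10.3% lower. Among crest progenitor factors and receptors, 0 of 11 tested genes rose and 3 fell in cystic duct. Ntrk3, the neurotrophin-3 receptor, fell from 6.81 and 6.72 in ICR wild type gallbladder to 5.34 and 4.81, within the background range (limma adjusted p = 0.00822). Ednrb, the endothelin receptor of migrating crest cells, fell from 10.77 and 10.86 to 9.26 and 9.83 (limma adjusted p = 0.0113). Hand2, a transcription factor of enteric neurons and also of mesenchyme, fell from 11.28 and 11.28 to 10.39 and 10.47 (limma adjusted p = 0.00821). The list's median was 0.23, beside -0.05 for all probe sets; it was 0.29 without cystic duct replicate 1 and -0.29 without replicate 2.

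Glial genes gave 0 higher and 1 lower of 11, Sox8, a relative of Sox10 (limma adjusted p = 0.0186), and the list's median was -0.05. Sox8 gave 5.99 and 5.35 in ICR wild type gallbladder, within the range of the unrelated tissue genes, and 4.33 and 3.58 in cystic duct, under the filter value, so the size of its difference is not given. Pan-neuronal genes gave 2 higher and 0 lower of 18, with a median of 0.15. Dcx, a microtubule-associated protein of young neurons, rose from 5.10 and 5.28 to 7.15 and 7.12 (limma adjusted p = 0.00393). Chga, a granule protein of endocrine cells and neurons, rose from 5.60 and 5.53 to 6.84 and 7.81 (limma adjusted p = 0.0237). The gallbladder values of both genes lay within the range of the unrelated tissue genes, so no fold is given.

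Of 14 transmitter and peptide genes, 0 rose and 1 fell: Ddc, the decarboxylase that acts after Th and that hepatobiliary epithelium can also make, fell by 1.07 on the log2 scale, from 8.83 and 9.34 to 7.96 and 8.08 (limma adjusted p = 0.0158). The list's median was 0.08, and it was 0.48 without cystic duct replicate 1 and -0.20 without replicate 2. Of 9 target-derived ligands and guidance genes, 0 rose and 2 fell. Bdnf, a neurotrophin, went from 7.90 and 8.20 to 6.63 and 6.68 (2.63-fold lower, limma adjusted p = 0.00942). Sema3c, a semaphorin that steers axons and crest cells, went from 10.00 and 10.12 to 8.47 and 9.16 (2.37-fold lower, limma adjusted p = 0.0265). The median of the ligand list was -0.42.

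**Figure D4:**
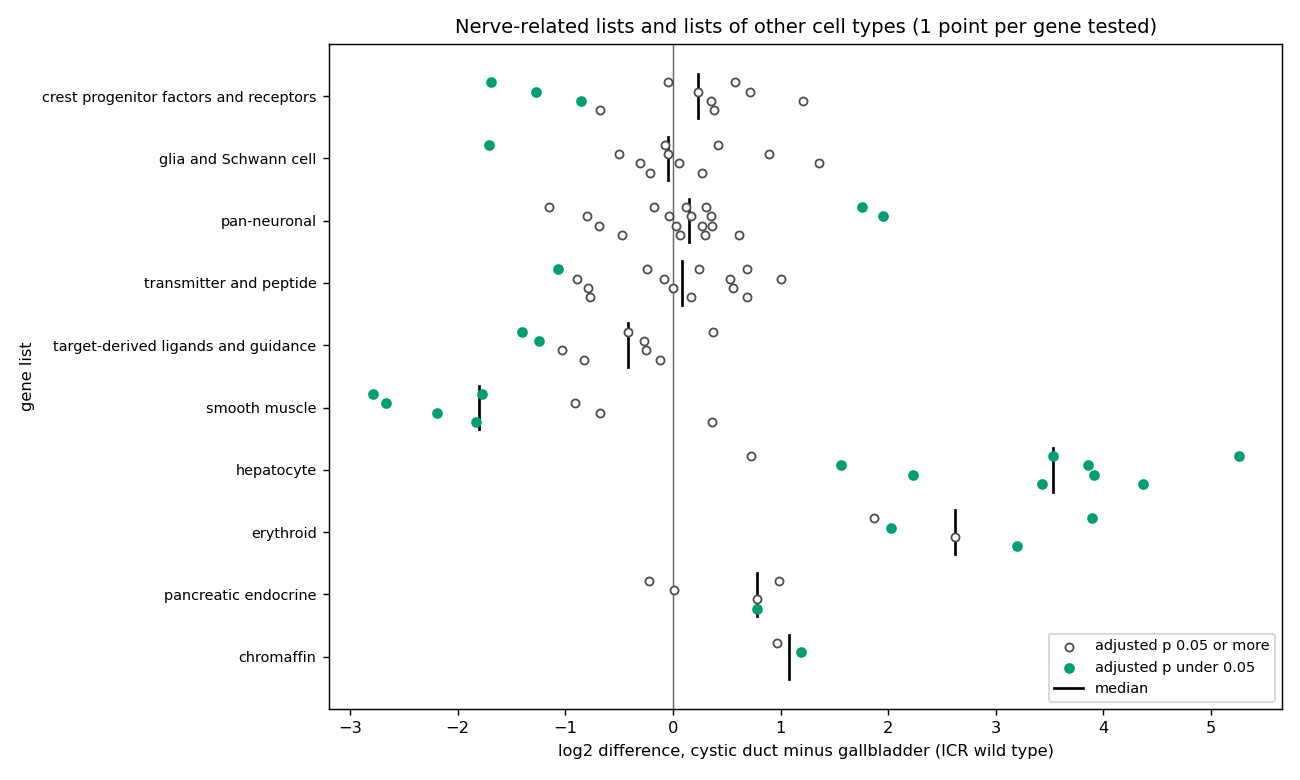
Log2 difference between ICR wild type cystic duct and gallbladder (x axis) of each tested gene, by list (y axis); filled points have a limma adjusted p under 0.05 and bars are list medians. Hepatocyte genes lie highest (median 3.53) and smooth muscle genes lowest (median -1.80), and the medians of the nerve-related lists run from -0.42 to 0.23.

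These list counts also moved with the cystic duct replicate used. Without replicate 1, where 48.4% of all probe sets passed, pan-neuronal genes gave 6 higher and 1 lower, transmitter genes 5 and 2, crest genes 3 and 3, glial genes 2 and 3, and ligands 2 and 4. Without replicate 2, where 20.9% of all passed, the counts were 2 and 1, 1 and 3, 1 and 3, 0 and 1, and 0 and 4 in the same order. The list counts also changed on leaving out a wild type gallbladder sample of either strain, in fits with 1 sample left in that group. In those fits the number of all probe sets passing changed as well. Fitted on the compared samples alone, 0 genes of any of these lists passed. The ligand list had a negative median on leaving out either cystic duct replicate (-0.46 and -0.81). The pan-neuronal median was 0.42 without cystic duct replicate 1 and -0.24 without replicate 2.

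Relatives of the members gave further context. Of the 7 other beta tubulins, Tubb1, the platelet isotype, rose from 6.21 and 5.58, within the background range, to 7.80 and 7.29 in cystic duct (limma adjusted p = 0.0135), Tubb2a fell from 11.31 and 11.44 to 10.76 and 10.92, and Tubb6 from 10.76 and 10.64 to 9.28 and 10.09 (limma adjusted p = 0.0317 and 0.0461). As deposited, 0 of the beta tubulins rose and 3 fell. Among 6 stathmin, Elavl and intermediate filament relatives, Vim, the filament of mesenchymal cells, fell from 13.31 and 13.20 to 11.93 and 12.48 (limma adjusted p = 0.00991), and the others did not pass.

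Between genotypes, 0 genes of each of these lists passed in limma over both strains. The glial gene with the lowest p was Fabp7, a lipid-binding protein of developing glia. It gave 8.67 and 8.28 in ICR wild type, 9.21 and 9.43 in ICR Sox17+/-, 8.94 and 8.51 in B6 wild type, and 9.63 and 9.13 in B6 Sox17+/- (difference 0.75, SE 0.17, unadjusted p = 0.00216, limma adjusted p = 0.597). Both Sox17+/- samples were above both wild type samples in each strain, as for 3.75% of all probe sets. Fabp7 was picked by its p in this comparison, so that separation adds no support of its own. Dcx differed by 0.72 (limma adjusted p = 0.491) and Ddc by -0.65 (limma adjusted p = 0.485). The medians were -0.15 for crest genes, 0.13 for glia, 0.07 for pan-neuronal genes, -0.01 for transmitter genes and -0.20 for ligands, beside -0.01 for all probe sets. Hepatocyte and skeletal muscle genes had medians of 0.80 and 1.22 in the same comparison, again with 0 passing. The hepatocyte median was 1.52 in ICR and 0.17 in B6, and the skeletal muscle median was 0.56 in ICR, 1.70 in B6 and, over both strains, 0.74 without B6 Sox17+/- replicate 3. Their part in the values above was not tested.

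Genes with the pattern most like Gap43 were sought among all genes as those with the smallest root mean square difference from its centred log2 signals over the 10 samples. They were Wnt2, Dpysl3 and Hspb1, each at 0.18 log2. The search used the cystic duct samples too, so lower signals there follow from how these genes were picked. Dpysl3, a collapsin response mediator protein of growing axons that mesenchyme makes as well, was 1.19 lower in cystic duct on the log2 scale than in ICR wild type gallbladder. Wnt2, a mesenchymal signalling ligand, differed by -1.35 and Hspb1, a small heat shock protein, by -1.01. For Stmn2 1423281_at the nearest were Hoxc5, Crabp2 and S100a10, at 0.32, 0.38 and 0.40, a looser match. No other member's brightest probe set spanned over 1 log2 unit between group means.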

How the data were processed

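Total RNA was extracted with Trizol and labelled as biotinylated cRNA for Affymetrix arrays, per the labels' protocols. The deposited table holds 1 value per probe set and sample; the values ran from 2.20 to 15.15 and were read as log2 signals from that range, and how the authors corrected background and normalized is not given in the sources used here. Samples were grouped from titles and label values, since the stage and genotype tags are swapped in the sample records. Sample medians ran from 5.51 to 6.07.

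Of 45101 probe sets, 64 controls were left out; by the platform table, 34945 of the rest had 1 gene, 932 had several and 9160 had none. Entrez identifiers of 34741 were found in the RefSeq gene table (GRCm38.p6). Values were quantile normalized, probe sets under the 30th percentile of mean signal (4.47) were left out, and limma 3.58.1 (R 4.3.3) fitted 1 mean per group to all 10 samples with a mean-variance trend, with 5 residual and 8.13 total degrees of freedom. Adjusted p-values are Benjamini-Hochberg over all 31526 probe sets, with a threshold of 0.05. In the lists each gene was read by its brightest probe set.

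The members, lists and tests were chosen with earlier results of these data known. Genes named were all member probe sets, up to 4 per list and comparison by p, and the 3 genes nearest in pattern to members spanning over 1 log2 unit between groups. Some listed genes were not analysed here. Alternatives were the deposited scale, median centring, other filters and summaries, no trend, array weights, the compared groups alone, the replicate number as a block and leaving out each sample; cystic duct against all gallbladders and the list counts under other settings were added after seeing the data. The steps were tested on simulated data in which all groups had the same spread, so that test does not cover the wider spread of the cystic duct pair. Python 3.11.15 with pandas 2.3.3 made the tables, and matplotlib 3.10.9 the figures.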

Additional observations from a re-analysis of the deposited data

How the results depend on the processing

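The arrays' number, 2 per group, limits the precision, and signals near background limit what 6 of the 8 genes can show. In the genotype, interaction and strain comparisons 0 members passed under any alternative: of 1246 alternative values 0 gained a call, though 90 of these uncalled differences turned sign. In cystic duct against gallbladder, 266 alternative values gave 11 gained and 12 lost calls, with 7 uncalled values turning sign. The lost calls were all of Gap43, which kept its call in 8 of 20 alternatives (that against all gallbladder groups not counted), with differences from -1.63 to -1.05 and adjusted p from 0.0151 to 0.547 in limma. The count of members passing there was 1, and became 0 with no filter (Gap43 limma adjusted p = 0.0506), with array weights (0.547), on the compared groups alone (0.334) and under a replicate block (0.0851). It ran from 0 to 8 on leaving out each sample and was 2 against all 4 gallbladder groups. The replicate numbers were not taken to pair samples: deviations correlated at 0.386 between ICR wild type and Sox17+/- gallbladder and 0.275 in B6, but at 0.065 and 0.05 with cystic duct. The block gave 0 members in all comparisons in which it could be fitted, and strains share no numbers. Over all probe sets the cystic duct count was 2759 (1014 higher, 1745 lower), 2668 as deposited (362 and 2306, with the median of all at -0.24), 1940 centred on medians (508 and 1432), 1967 with the block, 1655 on gene means, 5355 against all gallbladder groups, 0 with array weights or on the compared groups alone, and 712 to 15250 on leaving out a sample. Strain gave 919, 2722 on the compared groups alone, 4742 with array weights, 19 with 1 probe set per gene and 11 to 3381 on leaving out a sample; genotype over both strains gave 2, 36 on the compared groups alone, 120 with array weights and 1 to 413 on leaving out a sample. On leaving out a sample the ICR genotype count (1) ran from 0 to 634, that in B6 (1) from 0 to 3 and the interaction (0) from 0 to 401; with array weights B6 gave 95 and ICR 5, and on the compared groups alone 33 and 2. Why these counts moved was not tested beyond the samples each setting drops.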
